A study of Mus musculus with 6 samples.

Results

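A set of 10 genes that act in the making of multiple motile cilia was followed by RNA-seq in cells sorted from the mouse subventricular zone. The genes are Gmnc, Trp73, Myb, Foxj1, Rfx1, Rfx2, Rfx3, Rfx4, Ccno and Deup1, taken by symbol from a deposited table of 55487 genes, and all 10 were found. All 10 also passed the filter on low values, a mean of at least 10 normalized reads, which 18227 genes passed. Most of the 10 encode transcription factors or their cofactors. Ccno and Deup1 belong to the centriole-building machinery that these factors switch on.

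The knockout group was E2F1(-/-);E2F3(F/F) and the heterozygous group was E2F1(+/-);E2F3(F/+), with 3 libraries each, labelled A, B and C. All mice, of mixed C57BL/6;Sv/129;FVB/N background and 6 to 10 weeks old, carried NestinCreERT2 and the R26;EYFP reporter and received 200 mg/kg of tamoxifen per day for 5 days. So the heterozygous libraries also come from mice with 1 lost E2f1 allele, 1 floxed E2f3 allele, Cre, reporter and drug, and no wild-type group was used here. The Nestin promoter drives a tamoxifen-dependent Cre in neural stem cells, and the reporter then marks those cells and their descendants. Adult ependymal cells can express Nestin too. The zone was dissected 10 days later, and cells of several mice were combined until a library had at least 200000 reporter-positive cells. The E2f1 allele is lost in every cell of the body and from before birth, while E2f3 is deleted where Cre was active, so the effects of the losses cannot be told apart.

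Multiciliated cells carry many motile cilia on their surface, and in the brain they are the ependymal cells that line the ventricles and the epithelial cells of the choroid plexus. Their fate is set by a cascade. GEMC1, the product of Gmnc, and its relative multicilin, the product of Mcidas, bind E2F4 or E2F5 with a DP partner and are held in check by geminin. The complexes turn on Trp73, Myb, Foxj1, Ccno and Deup1. Centrioles are then copied in large numbers, many of them on deuterosomes, and FOXJ1 and RFX factors turn on the genes of the motile axoneme. RFX proteins bind a DNA element called the X-box. E2f1 and E2f3 encode activator E2Fs, which drive entry into S phase and are relatives of E2F4 and E2F5.

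Because the regulators of the cascade act on one another's promoters, the windows from 250 bases before to 50 bases after an annotated start were searched for 4 kinds of binding letters, on both strands. The windows are RefSeq promoters on GRCm38.p6, each is given on the strand of its gene, and matches are in capitals. Of the 10 genes, 9 have such a window. Foxj1 has none in the promoter set used, so its promoter was not searched. With Mcidas and the alternative starts 14 windows were searched. The windows shown are those with 2 matches (for Deup1, the start with the X-box), and that of Trp73, the gene with the largest change, for contrast.
Rfx2, chr17:56830959-56831258, minus strand: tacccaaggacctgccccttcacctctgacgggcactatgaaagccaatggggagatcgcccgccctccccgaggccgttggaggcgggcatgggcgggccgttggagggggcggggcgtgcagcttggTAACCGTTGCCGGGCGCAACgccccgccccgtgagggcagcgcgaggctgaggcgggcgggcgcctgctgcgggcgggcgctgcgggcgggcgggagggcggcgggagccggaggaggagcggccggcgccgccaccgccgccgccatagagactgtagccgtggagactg
Deup1, chr9:15627797-15628096, minus strand: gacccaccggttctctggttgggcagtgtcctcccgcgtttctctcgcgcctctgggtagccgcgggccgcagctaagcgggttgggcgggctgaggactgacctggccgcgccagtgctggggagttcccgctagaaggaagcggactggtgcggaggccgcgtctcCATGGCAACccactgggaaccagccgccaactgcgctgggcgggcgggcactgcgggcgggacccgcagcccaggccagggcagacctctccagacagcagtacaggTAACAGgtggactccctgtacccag
Rfx4, downstream start, chr10:84837898-84838197, plus strand: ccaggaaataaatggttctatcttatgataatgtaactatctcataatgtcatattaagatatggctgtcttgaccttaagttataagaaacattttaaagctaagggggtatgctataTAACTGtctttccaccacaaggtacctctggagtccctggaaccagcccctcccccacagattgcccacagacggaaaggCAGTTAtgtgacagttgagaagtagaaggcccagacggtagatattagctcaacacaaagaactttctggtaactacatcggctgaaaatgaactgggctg
Myb, chr10:21160935-21161234, minus strand: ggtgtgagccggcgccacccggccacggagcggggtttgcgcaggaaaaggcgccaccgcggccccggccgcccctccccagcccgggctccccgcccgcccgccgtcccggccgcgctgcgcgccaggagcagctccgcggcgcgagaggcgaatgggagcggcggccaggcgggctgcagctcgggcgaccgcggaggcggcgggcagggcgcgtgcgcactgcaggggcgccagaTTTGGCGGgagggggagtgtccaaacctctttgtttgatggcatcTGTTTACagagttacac
Trp73, upstream start, chr4:154139826-154140125, minus strand: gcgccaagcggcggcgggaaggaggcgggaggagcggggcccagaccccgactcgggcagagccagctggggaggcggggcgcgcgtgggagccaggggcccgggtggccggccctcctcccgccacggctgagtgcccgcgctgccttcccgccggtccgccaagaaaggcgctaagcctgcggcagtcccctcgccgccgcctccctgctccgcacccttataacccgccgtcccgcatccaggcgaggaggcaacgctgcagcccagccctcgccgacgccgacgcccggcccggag

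The capitals in Rfx2 hold a MYB match (TAACNG) that begins at base -121 and runs into a pair of X-box half-sites (GTTGCC and GCAAC, 2 to 4 bases apart, beginning at base -116). The X-box pair was found in 0.332% of all 32851 promoters of that length, and TAACNG in 23.3%. In Deup1 an X-box half-site with its core (GTTGCCATG, on the other strand) begins at base -82, a match present in 0.773% of promoters, and a MYB match begins at base 26. The downstream start of Rfx4 has 2 MYB matches. Myb itself has an E2F match (TTTGGCGG) that begins at base -12, and a forkhead match (TGTTTAC) at base 34. Any of 4 E2F spellings (TTTGGCGC, TTTCCCGC, TTTGGCGG and TTTCGCGC) was found in 2.37% of promoters, and TGTTTAC in 3.65%. The upstream window of Trp73 holds none of these letters. It has 77.7% G and C and 39 CpG dinucleotides, against medians of 52.7% and 7 CpG over all promoters. Outside the windows shown, Gmnc (1 match) and the other Deup1 start (2 matches) hold TAACNG, and no other window holds any of the letters. The X-box pair and the last 2 E2F spellings were added after the sequences had been read. The X-box pair of Rfx2 and the E2F match of Myb, the only E2F match found, thus come from letters chosen with the sequences known. All the matches describe letters and not binding.

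Of the 10 genes, 5 rose in knockout libraries (Foxj1, Rfx2, Rfx4, Trp73 and Deup1) and 0 fell, by limma with Benjamini-Hochberg adjustment at 0.05. At an unadjusted p under 0.05, and by edgeR and DESeq2, 0 were lower as well. Over all 18227 genes tested, 7.23% were called higher and 8.59% lower. All 10 changes were positive, and their median was 1.22 on the log2 scale, beside a median of 0.046 over all genes tested. In 6 of the 10 genes (those 5 and Rfx1) every knockout library lay above every heterozygous one, which held for 18.5% of all genes tested. Values below are normalized reads, which are read counts divided by a size factor of the library.

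**Figure D1:**
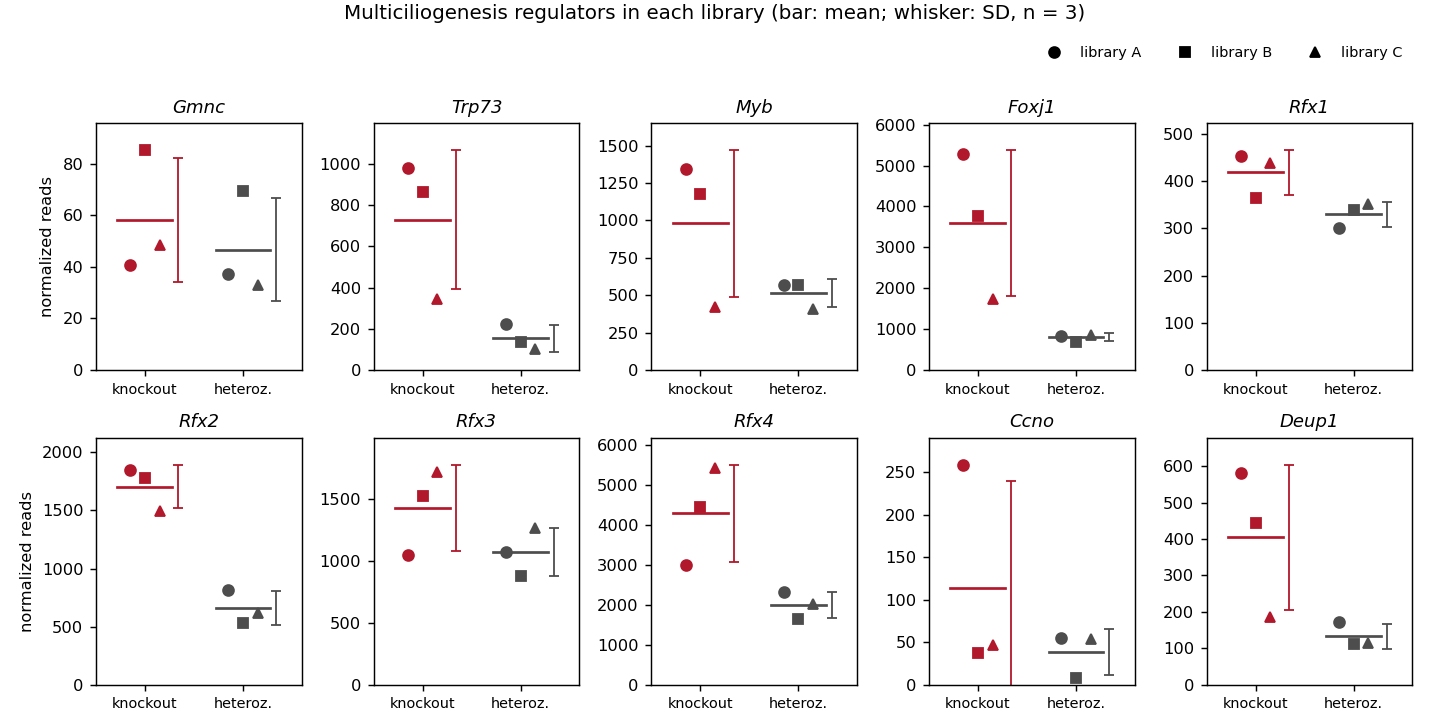
Normalized reads of the 10 genes in each library, with knockout libraries on the left and heterozygous libraries on the right of each panel. Horizontal bars are means and whiskers SD (n = 3 each; the lower whisker of Ccno in knockout libraries is clipped at 0). Knockout A is highest and knockout C lowest for Foxj1, Trp73, Myb and Deup1, and the reverse holds for Rfx3 and Rfx4.

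At the head of the cascade, Gmnc (ENSMUSG00000068428, GRCm38 chr16:26913553-26991652, minus strand) was scarce, with 40.6, 85.5 and 48.6 normalized reads in knockout libraries A, B and C and 37.3, 69.6 and 33 in heterozygous libraries A, B and C. The groups overlapped, and the log2 change of 0.32 ± 0.50 (SE) was not called by limma (adjusted p = 0.689, 95% interval -0.81 to 1.45). The interval is wide enough to hold a change of the size called for Rfx2. Mcidas, the relative of Gmnc, had 4, 9 and 0 reads in knockout libraries and 0 in each heterozygous library, where a count of 0 allows up to 3 reads. It stood below the filter and was not tested. In the authors' deposited table its log2 change was 4.498 with a standard error of 3.05 and an adjusted p of 1.

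The DNA-binding partners and the antagonist of this switch had far more reads. Gmnn, which encodes geminin, fell to 419, 381 and 653 normalized reads in knockout libraries, against 835, 1326 and 988 in heterozygous libraries (log2 change -1.13 ± 0.27, limma adjusted p = 0.0259). Tfdp1, which encodes the DP partner of E2Fs, fell to 1535, 1981 and 2339 in knockout libraries, against 4184, 5336 and 3412 in heterozygous libraries (-1.14 ± 0.23, limma adjusted p = 0.0141). For both genes every knockout library was lower than every heterozygous one. Both are also expressed in dividing cells, and the dividing-cell genes Mki67 (log2 change -3.43 ± 0.28, limma adjusted p = 0.000886) and Top2a (-2.82 ± 0.34, limma adjusted p = 0.00156) fell further. Their part in the change of Gmnn and Tfdp1 was not tested. E2f4 had a log2 change of -0.28 ± 0.21 (limma adjusted p = 0.374, 95% interval -0.74 to 0.19), and E2f5 one of 0.15 ± 0.18 (limma adjusted p = 0.577, 95% interval -0.25 to 0.56). Of the other listed partners and neighbours, Six3, a forebrain homeobox gene needed for ependymal maturation in mice, rose to 758, 683 and 731 normalized reads in knockout libraries, against 383, 416 and 520 in heterozygous libraries (0.73 ± 0.22, limma adjusted p = 0.0486). Not called were Rbl2 (a pocket protein, 0.78), Trp63 (a relative of Trp73, 1.09), Fbxo43 (an inhibitor of the anaphase-promoting complex, 1.57), Cdkn1a (a cell-cycle inhibitor, 0.48), Tfdp2 (-0.17) and Ccna1 (a cyclin, -0.97), with limma adjusted p of 0.0755 to 0.593. Of these, Rbl2 and Trp63 had an unadjusted limma p under 0.05, with every knockout library above every heterozygous one. Among the listed switch genes DESeq2 called 2 higher and 2 lower, and edgeR 1 higher and 2 lower. Foxn4 had at most 14 reads in a library and Cdc20b 0 in all 6, so neither was tested. The 14 listed switch genes thus had 1 call upward and 2 downward among the 11 tested, with a median log2 change of 0.15. These calls rest on few libraries. The upward count was 0 with the library letter as a replicate block and in every fit with 1 library left out but the one without knockout A. The downward count was 0 without knockout B, heterozygous A or heterozygous B, and 1 without knockout A or heterozygous C.

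Trp73 (ENSMUSG00000029026, GRCm38 chr4:154056253-154140208, minus strand) encodes p73, which lies directly under GEMC1 and directs the programme through Foxj1, Rfx2 and Rfx3 in mice. It had 980, 865 and 344 normalized reads in knockout libraries A, B and C and 223, 135 and 99.95 in heterozygous libraries A, B and C. Even the lowest knockout library, C, stood above the highest heterozygous library, A. Its mean was 730 ± 339 in knockout and 153 ± 63.3 in heterozygous libraries (SD, n = 3 each), a 4.57-fold higher level on the log2(value + 1) scale (log2 change 2.19 ± 0.44, limma adjusted p = 0.0142). Without knockout B or without heterozygous B the call was lost (adjusted p = 0.0656 and 0.0767). The table counts the whole gene, so long forms from the upstream start and short forms from the internal start cannot be told apart. A stretch of 280 exon bases overlaps the antisense gene Trp73os, which averaged 2.50 normalized reads.

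Myb (ENSMUSG00000019982, GRCm38 chr10:21124935-21160984, minus strand) encodes a transcription factor of early multiciliogenesis that also works in dividing progenitors. It had 1343, 1175 and 419 normalized reads in knockout libraries A, B and C and 570, 565 and 409 in heterozygous libraries A, B and C. Knockout A and B lay above all heterozygous libraries, while knockout C lay among them. The log2 change was 0.77 ± 0.41 and was not called (limma adjusted p = 0.210, 95% interval -0.13 to 1.68). Without knockout C it was 1.30 and was called (adjusted p = 0.00423). Exons of the antisense gene Gm26577 overlap 559 bases of Myb, and that gene averaged 1.65 normalized reads.

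Foxj1 (ENSMUSG00000034227, GRCm38 chr11:116330704-116335399, minus strand), the forkhead factor that commands the motile-cilium genes, had the smallest p of the 10 after Rfx2. It had 5293, 3769 and 1725 normalized reads in knockout libraries A, B and C and 842, 693 and 866 in heterozygous libraries A, B and C. The heterozygous libraries lay close together, with a coefficient of variation of 11.7%, while that of knockout libraries was 49.8%. The mean was 3596 ± 1790 in knockout and 800.2 ± 93.8 in heterozygous libraries (SD, n = 3 each). The log2 change was 2.03 ± 0.36, or 4.08-fold (limma adjusted p = 0.00835), and without heterozygous B the call was lost (adjusted p = 0.0627).

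Among the RFX genes, Rfx2 and Rfx4 rose, and Rfx1 and Rfx3 were not called. Rfx2 (ENSMUSG00000024206, GRCm38 chr17:56775897-56831013, minus strand), an RFX factor that works beside FOXJ1 on motile-cilium genes, had the steadiest increase. It had 1844, 1782 and 1492 normalized reads in knockout libraries A, B and C and 819, 532 and 621 in heterozygous libraries A, B and C. The mean was 1706 ± 188 in knockout and 657 ± 147 in heterozygous libraries (SD, n = 3 each), and the knockout libraries differed by only 1.24-fold from A to C. The log2 change was 1.39 ± 0.22, or 2.62-fold (limma adjusted p = 0.00497), and Rfx2 was called under all 18 alternatives tried.

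Rfx4 (ENSMUSG00000020037, GRCm38 chr10:84756062-84906538, plus strand) is the RFX gene of the developing and adult neural tissue and is also expressed in astrocytes and neural stem cells. It had 3009, 4453 and 5429 normalized reads in knockout libraries A, B and C and 2321, 1657 and 2012 in heterozygous libraries A, B and C. All knockout libraries stood above the heterozygous ones, but here knockout C was highest, with A at 0.554 of C. The mean was 4297 ± 1218 in knockout and 1997 ± 332 in heterozygous libraries (SD, n = 3 each; log2 change 1.08 ± 0.24, limma adjusted p = 0.0208). The call was lost without knockout B, heterozygous A or heterozygous B (adjusted p = 0.0925, 0.0532 and 0.0966).

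Rfx3 (ENSMUSG00000040929, GRCm38 chr19:27761721-28011166, minus strand), the RFX gene most tied to ciliary assembly in the mouse brain, had 1045, 1527 and 1718 normalized reads in knockout libraries A, B and C and 1074, 876 and 1263 in heterozygous libraries A, B and C. Knockout A fell within the heterozygous range. Its log2 change of 0.40 ± 0.24 was not called (limma adjusted p = 0.270, 95% interval -0.14 to 0.94). Rfx1 (ENSMUSG00000031706, GRCm38 chr8:84066834-84096992, plus strand), a widely expressed RFX gene, had 454, 365 and 438 normalized reads in knockout libraries A, B and C and 301, 338 and 351 in heterozygous libraries A, B and C. The groups did not overlap, but the log2 change of 0.34 ± 0.23 was not called (limma adjusted p = 0.328, 95% interval -0.18 to 0.86). It shares 42 exon bases, 0.653% of its exon length, with the antisense gene C330011M18Rik, which averaged 106.8 normalized reads. The other RFX genes and the RFX partners Rfxap and Rfxank, best known for MHC class II genes, had 0 calls among 5 tested by limma, and 0 by edgeR or DESeq2, with a median log2 change of 0.26. Their changes were -0.55 for Rfx7, 0.52 for Rfxank, 1.49 for Rfx8, -0.18 for Rfxap and 0.26 for Rfx5 (limma adjusted p of 0.119 to 0.600), and of these Rfx7 and Rfxank had an unadjusted p under 0.05. Rfx6 had 0 reads in every library.

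Ccno (ENSMUSG00000042417, GRCm38 chr13:112987802-112990777, plus strand) encodes cyclin O, which is needed for the mass production of centrioles. It lies 3067 bases upstream of Mcidas on the same strand. It had 236, 42 and 46 reads in knockout libraries A, B and C and 55, 8 and 54 in heterozygous libraries A, B and C, or 259, 37.4 and 46.5 normalized reads in knockout and 55.5, 7.84 and 54.0 in heterozygous libraries. Knockout A alone stood above the heterozygous range. The log2 change of 1.37 ± 0.90 was not called (limma adjusted p = 0.315), and its 95% interval of -0.66 to 3.40 is the widest of the 10.

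Deup1 (ENSMUSG00000039977, GRCm38 chr9:15559864-15627933, minus strand) encodes a scaffold protein of deuterosomes. It had 580, 445 and 187 normalized reads in knockout libraries A, B and C and 173, 112 and 114 in heterozygous libraries A, B and C. Knockout C stood only just above heterozygous A. The mean was 404 ± 200 in knockout and 133 ± 34.5 in heterozygous libraries (SD, n = 3 each; log2 change 1.48 ± 0.43, or 2.79-fold, limma adjusted p = 0.0452). This is the call nearest the threshold, and of the 6 fits with 1 library left out it was kept only in the one without knockout C (adjusted p = 0.00219), against 0.0828 to 0.160 in the other 5.

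**Figure D2:**
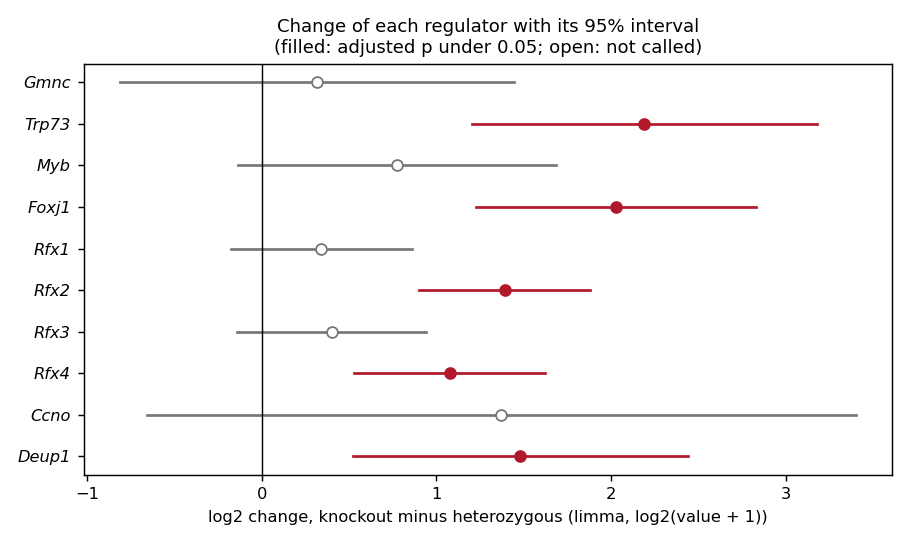
Log2 change of each gene, knockout minus heterozygous, as a point with its 95% interval (limma on log2(value + 1), n = 3 each). Filled points have an adjusted p under 0.05. The 5 filled points are Trp73, Foxj1, Deup1, Rfx2 and Rfx4, and the interval of Ccno (-0.66 to 3.40) is the widest.

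Per kilobase of exon, the mean level of Foxj1 was 1371 in knockout and 305 in heterozygous libraries, and that of Rfx4 was 910 in knockout and 423 in heterozygous libraries, in normalized reads. These are the most abundant of the 10 transcripts, and their order differed between the genotypes. In knockout libraries Foxj1 stood above Rfx4 with overlapping ranges. In heterozygous libraries Rfx4 stood above Foxj1, with ranges that did not overlap. In knockout libraries Rfx2 followed at 233, and Trp73 (132), Rfx3 (129.6), Deup1 (122), Myb (109.6), Rfx1 (65.2), Ccno (44.7) and Gmnc (10.1) came after it, each overlapping its neighbour from Trp73 down. In heterozygous libraries Rfx3 (97.1) and Rfx2 (89.9) followed, and Myb (57.6), Rfx1 (51.3), Deup1 (40.1), Trp73 (27.6), Ccno (15.3) and Gmnc (8.12) came after them, each overlapping its neighbour from Myb down. Trp73 thus took the fourth place of the 10 in knockout and the eighth in heterozygous libraries.

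The knockout libraries were not alike, and the order in which they stood split the 10 genes. Foxj1, Trp73, Myb, Deup1 and Rfx2 had their highest value in knockout A and their lowest in C, while Rfx3 and Rfx4 were highest in C and lowest in A. Over all genes tested the orders were found in 25.8% and 30.6%, and over genes called higher in knockout libraries in 49.4% and 16.8%. The 10 genes had these orders in 5 and 2 cases, close to the shares among genes called higher. The split is therefore not particular to them. Relative to the heterozygous mean, Foxj1 stood at 6.61, 4.71 and 2.16 in knockout A, B and C, Trp73 at 6.41, 5.67 and 2.25, Deup1 at 4.37, 3.35 and 1.41, and Myb at 2.61, 2.28 and 0.814. Rfx2 stood at 2.81, 2.71 and 2.27, Rfx3 at 0.976, 1.43 and 1.604, and Rfx4 at 1.51, 2.23 and 2.72.

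Summed markers of some other cell types had one of these orders. The sum of 20 ependymal markers was 98811, 63579 and 24274 normalized reads in knockout libraries A, B and C and 19620, 16171 and 16796 in heterozygous A, B and C, or 5.64, 3.63 and 1.38 times the heterozygous mean in the knockout libraries. Of these markers 15 of 20 rose, 0 fell and 18 had knockout A highest and C lowest. The sum of 12 endothelial markers was 36649, 13325 and 4257 in knockout A, B and C and 5912, 6522 and 6480 in heterozygous A, B and C. All 12 had knockout A highest and C lowest, and 0 were called by limma or edgeR, while 2 had an unadjusted p under 0.05 and DESeq2 called 4. Among the 12, Pecam1, an endothelial adhesion gene, had 1480, 496 and 200.4 normalized reads in knockout and 296, 286 and 289 in heterozygous libraries. Cldn5, of endothelial tight junctions, had 5270, 1426 and 677 in knockout and 602, 752 and 622 in heterozygous libraries. Markers of mural cells summed to 34552, 28378 and 13166 in knockout A, B and C and 9021 to 19115 in heterozygous libraries. Of the 10, 8 had knockout A highest and C lowest, 1 had the reverse, and 2 were called higher (Pdgfrb and Notch3). Those of microglia summed to 15322, 4229 and 4420 in knockout A, B and C and to 2852 to 10659 in heterozygous libraries. The sum had neither order, but 9 of the 11 genes had knockout A highest and C lowest, and 0 had the reverse. Of the 11, 0 were called by limma, edgeR or DESeq2 and 0 had an unadjusted p under 0.05. The microglial receptor gene Cx3cr1 had 561, 81.9 and 49.6 normalized reads in knockout and 59.5, 73.5 and 402 in heterozygous libraries. Blood markers summed to 18576, 4978 and 593 in knockout A, B and C and 1273 to 3640 in heterozygous libraries. Of the 9, 2 were at 0 in every library and 3 were tested, all 3 with knockout A highest and C lowest. By limma, edgeR or DESeq2 0 were called, and 0 had an unadjusted p under 0.05. Oligodendrocyte markers summed to 95316, 76617 and 95027 in knockout A, B and C, again neither order, and to 49044 to 70714 in heterozygous libraries, with 0 of 10 called by limma or edgeR, 1 by DESeq2 and 4 at an unadjusted p under 0.05. The myelin gene Mog had 3949, 2333 and 2769 normalized reads in knockout and 1223, 2081 and 1837 in heterozygous libraries. Knockout A had the highest ependymal, endothelial, mural, microglial and blood sums. In the fit without it, 4 of the 10 genes were called (Foxj1, Rfx2, Rfx4 and Trp73). Over all genes, that fit called 972 of 17952 tested higher, in place of 1318 of 18227. These counts do not show which cells the calls came from. The part of these cell types in the changes of the 10 genes was not tested. In bulk libraries the number of cells of a type and the amount of RNA per cell cannot be told apart.

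Rfx3 and Rfx4 shared their order with the summed markers of stem cells and astrocytes, of dividing progenitors and of neuroblasts. The 14 stem cell and astrocyte markers summed to 328407, 536116 and 596643 normalized reads in knockout libraries A, B and C and 300592, 257336 and 394901 in heterozygous A, B and C. Of the 14, 8 had knockout C highest and A lowest, and 3 were called higher (Gfap, Id3 and Sox9). Markers of dividing progenitors summed to 10961, 13654 and 23335 in knockout A, B and C and 38040 to 60481 in heterozygous libraries (7 of 10 called lower, 7 with C highest and A lowest), and those of neuroblasts to 8525, 8699 and 13600 in knockout A, B and C and 63114 to 102781 in heterozygous libraries (12 of 12 called lower, 6 with C highest and A lowest). Both sums stood at 0.461 or less of the heterozygous mean in every knockout library.

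**Figure D3:**
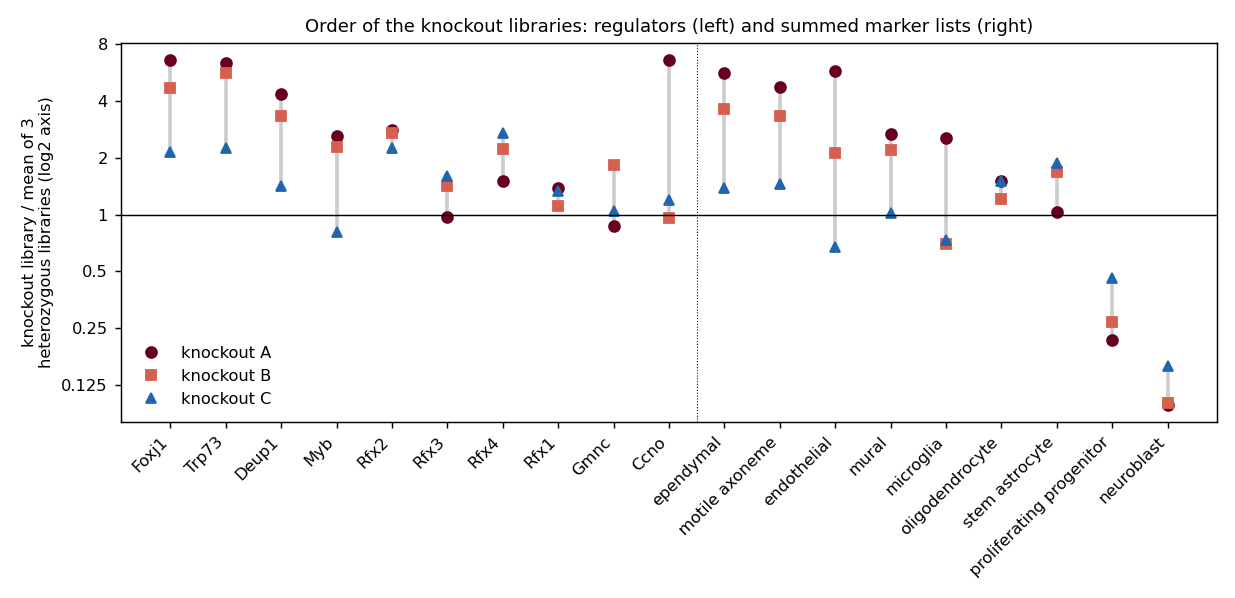
Each knockout library divided by the mean of the 3 heterozygous libraries, on a log2 axis, for the 10 genes (left of the dotted line) and for summed marker lists (right of it). Circles are knockout A, squares knockout B and triangles knockout C. Foxj1, Trp73, Deup1 and Myb stand in the order of the ependymal, motile-axoneme, endothelial and mural sums. Rfx3 and Rfx4 stand in that of the stem cell and astrocyte, dividing progenitor and neuroblast sums.

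One heterozygous library held RNA of another multiciliated tissue. Ttr, the transthyretin gene that marks choroid plexus, had 1123, 232 and 351 normalized reads in knockout libraries A, B and C and 44005, 12.7 and 3.0 in heterozygous libraries A, B and C. The 10 choroid plexus markers summed to 3693, 2355 and 1264 in knockout A, B and C and to 49017, 774 and 796 in heterozygous A, B and C, with 0 of 10 called in either direction by limma, edgeR or DESeq2 and 1 at an unadjusted p under 0.05. Heterozygous A was also the highest heterozygous library for Trp73, Rfx2, Rfx4, Deup1, Myb and Ccno. The lead was small for Myb (570 against 565 in B) and Ccno (55.5 against 54.0 in C). Foxj1, Rfx1, Rfx3 and Gmnc were highest in another heterozygous library. The ependymal sum of heterozygous A (19620) was also the highest of that group. The share of all genes highest in heterozygous A was not counted, and the part of choroid plexus RNA was not tested. Without heterozygous A the log2 change was 2.07 for Foxj1, 2.50 for Trp73, 1.68 for Deup1 and 1.19 for Rfx4, and 3 of the 10 genes were called (Foxj1, Rfx2 and Trp73). Without heterozygous A the whole table gave 325 higher calls in place of 1318.

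Scaled to the ependymal markers, 5 of the 6 genes whose groups had been apart overlapped (Rfx1, Rfx2, Rfx4, Trp73 and Deup1), Foxj1 stayed apart, and Myb, which had overlapped, came apart. This measure was normalized reads of a gene per 1000 of the 20 ependymal markers. It was chosen after the values had been seen and was not tested, and many of those markers are themselves ciliary genes. The ependymal sum stood at 5.64, 3.63 and 1.38 times the heterozygous mean in knockout A, B and C. Any gene that rose less than this sum comes out lower on this scale. The sum also ran from 24274 to 98811 in knockout libraries, against 16171 to 19620 in heterozygous ones. A gene that was steady between knockout libraries, such as Rfx2, is thus spread out by the scaling itself. Overlap on this scale therefore says little about such a gene. The share of all genes apart or overlapping on it was not counted, so these counts describe only the 10 genes. Foxj1 stood at 53.6, 59.3 and 71.1 in knockout A, B and C and 42.9, 42.8 and 51.5 in heterozygous A, B and C, so all knockout libraries were higher. Myb stood at 13.6, 18.5 and 17.3 in knockout A, B and C and 29.1, 35.0 and 24.3 in heterozygous A, B and C, so all knockout libraries were lower, although its unscaled mean was higher in knockout libraries. Deup1 stood at 5.87, 7.002 and 7.71 in knockout A, B and C and 8.79, 6.91 and 6.78 in heterozygous A, B and C. The groups overlapped for Deup1, as for the remaining 7 genes. Trp73 stood at 9.91, 13.6 and 14.2 in knockout A, B and C and 11.4, 8.36 and 5.95 in heterozygous A, B and C. Rfx4 ran from 30.5 in knockout A to 224 in knockout C, while the heterozygous libraries kept to 102 to 120, so its order did not follow the ependymal sum.

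**Figure D4:**
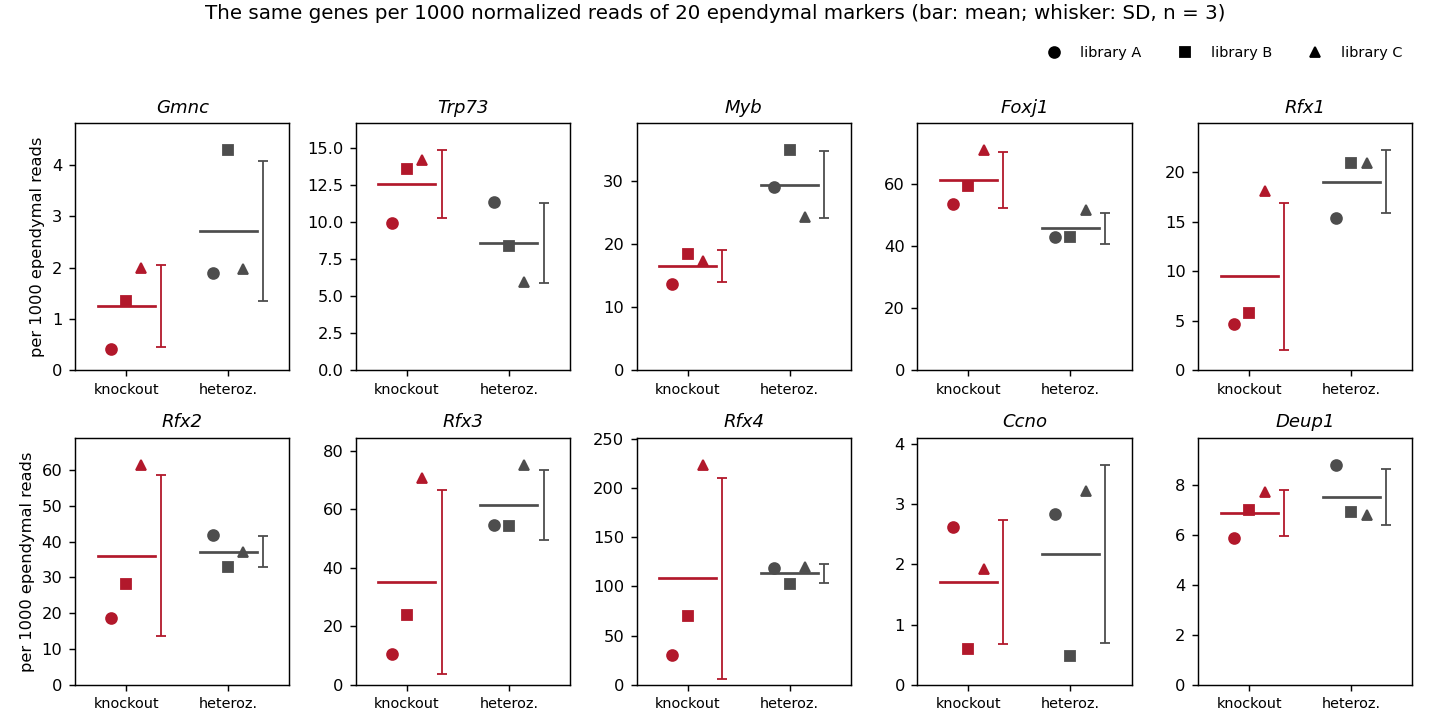
Normalized reads of each gene per 1000 normalized reads of the 20 ependymal markers, knockout libraries left and heterozygous libraries right. Bars are means and whiskers SD (n = 3 each). The groups are apart for Foxj1 (knockout higher) and Myb (knockout lower) and overlap for the other 8 genes.

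The genes of the cilium's parts, which lie downstream of the 10, were counted list by list, and differences between the lists were not tested. Motile-axoneme genes, which encode dynein arms, radial spokes and their assembly factors, had 44 of 62 tested called higher and 0 lower by limma, with a median log2 change of 1.56. At an unadjusted p under 0.05 limma had 1 lower, edgeR called 0 lower and DESeq2 called 1 lower, in both cases Dnaaf2 (log2 change -0.87 ± 0.30, limma adjusted p = 0.0747), a dynein-arm assembly factor. Of the 62, 58 had knockout A highest and C lowest. The smallest p-values were those of Zmynd10, a dynein-arm assembly factor (2254, 1642 and 814 normalized reads in knockout and 389, 316 and 326 in heterozygous libraries; log2 change 2.07 ± 0.34, limma adjusted p = 0.00640), Drc1 of the nexin-dynein complex (1.40 ± 0.26, limma adjusted p = 0.01) and Rsph9 of the radial spoke (1.09 ± 0.21, limma adjusted p = 0.0118). The ependymal markers with the smallest p were Iqub (1.31 ± 0.27, limma adjusted p = 0.0159), Fam216b (1.83 ± 0.43, limma adjusted p = 0.0234) and Spef2, a central-pair protein (1.85 ± 0.44, limma adjusted p = 0.0236). Genes of intraflagellar transport and the BBSome, which primary cilia use as well, had 8 of 30 called higher and 0 lower, with a median of 0.47. Among them were Ift57 (0.75 ± 0.17, limma adjusted p = 0.0188), Dync2li1, of the transport dynein (0.83 ± 0.20, limma adjusted p = 0.0269) and Ift80 (0.70 ± 0.18, limma adjusted p = 0.0320). These upward counts rest on few libraries. Without heterozygous B they were 0 for all 3 lists, and without knockout B they were 1 for the motile axoneme and 0 for the other lists. The motile-axoneme count was 21 without knockout A, 13 without heterozygous A and 18 without heterozygous C. The ependymal count was 5, 3 and 2, and the transport count 2, 1 and 1, without those same libraries.

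Genes of centriole duplication and amplification had 2 of 30 called higher and 7 lower, with a median of -0.24. Plk4, the kinase that starts centriole duplication, fell to 362, 535 and 646 normalized reads in knockout libraries, against 1588, 1579 and 1193 in heterozygous libraries (log2 change -1.52 ± 0.26, limma adjusted p = 0.00680). Stil, which works with it, fell to 62.5, 107 and 134 in knockout libraries, against 941, 500 and 453 in heterozygous libraries (-2.62 ± 0.39, limma adjusted p = 0.00385). Cenpj, which sets centriole length, changed by -1.48 ± 0.26 (limma adjusted p = 0.00777), and Cep120, Nedd1, Cntrob and Cep57 were the other lower calls. Cells that divide use these genes for the ordinary centriole cycle. The 2 higher calls were Cetn4, a centrin (1641, 1145 and 518 normalized reads in knockout and 445, 356 and 357 in heterozygous libraries; 1.37 ± 0.38, limma adjusted p = 0.0394), and Ccdc78, a deuterosome component (2798, 1591 and 628 in knockout and 633, 427 and 333 in heterozygous libraries, which overlap; 1.65 ± 0.48, limma adjusted p = 0.0454). Deup1 and Ccdc78 thus rose in libraries in which Plk4 and Stil fell. The count of lower calls was 4 without knockout B, and 3 without heterozygous A or without heterozygous B. No higher call was left in 5 of the 6 fits with 1 library left out, all but the one without knockout C.

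**Figure D5:**
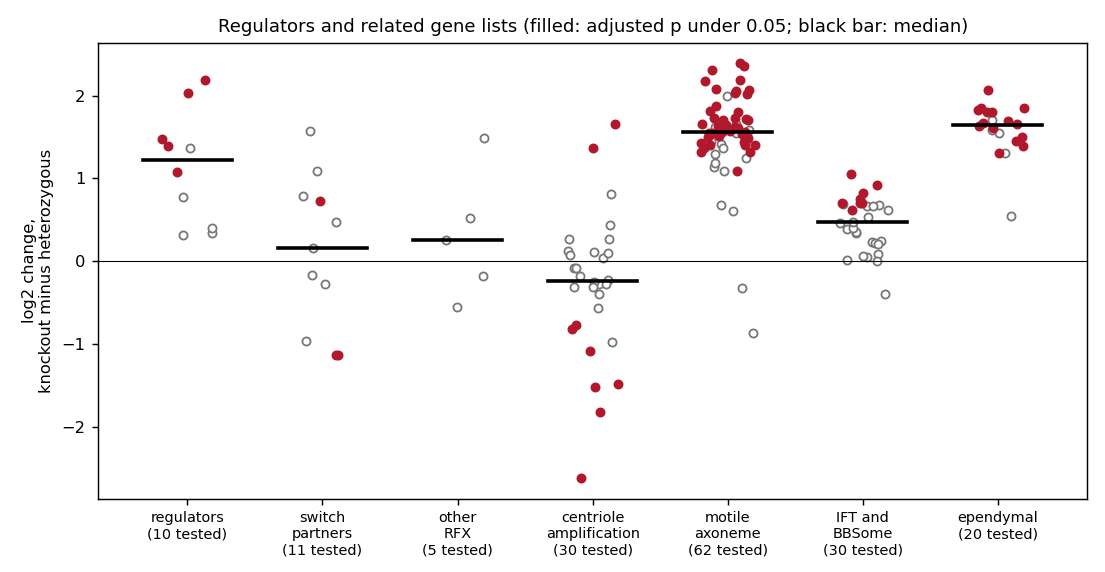
Log2 change of every tested gene in the 10 regulators and in 6 related lists (limma, knockout minus heterozygous, n = 3 each). Filled points have an adjusted p under 0.05 and black bars are medians, 1.22 for the regulators, 1.56 for the motile axoneme and -0.24 for centriole amplification.

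The transcripts whose pattern over the 6 libraries was most like that of Foxj1 were found by Pearson correlation of log2(value + 1) among 14125 genes with a mean of at least 50. They were Ift22 (r = 0.999), Gm44065 (0.997), Gbp2 (0.997), Ccdc102a (0.996), Zmynd10 (0.995) and Efcab2 (0.995). Of these, 5 were called higher by limma and Gm44065 was not (adjusted p = 0.0747). They were picked for likeness to Foxj1, which was itself called higher, so this count follows from the choice. The points share the genotype difference and the differences between knockout libraries, so these values describe likeness in 6 libraries. Among the other 9 regulators, r with Foxj1 was 0.969 for Deup1, 0.956 for Trp73, 0.935 for Rfx2, 0.832 for Myb, 0.722 for Rfx1, 0.663 for Ccno, 0.653 for Rfx4, 0.343 for Rfx3 and 0.234 for Gmnc.

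Of the targeted genes, E2f1 had 375, 483 and 516 normalized reads in knockout libraries and 1152, 1388 and 1030 in heterozygous libraries (log2 change -1.38 ± 0.22, limma adjusted p = 0.00559). E2f3 had 324, 231 and 245 in knockout and 293, 205 and 253 in heterozygous libraries (0.09 ± 0.28, limma adjusted p = 0.845). Reads over a whole gene do not show whether a floxed exon was lost. Reads assigned to genes ranged from 19798675 to 25982361 per library, and 22973 to 25362 genes had a read, while Gmnc, Ccno and Mcidas had 0 to 236 reads in a library.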

How the data were processed

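Libraries were made with SMART-Seq v4 from at least 35 ng of RNA and then Nextera XT, per the labels' protocols. These kits do not mark strand, so reads of a gene and of an overlapping antisense gene cannot be told apart. Reads were processed with HISAT2, featureCounts from Subread and DESeq2 on GRCm38, per the submitters' processing notes, which give no versions. Each library's deposited signal is the read count of a gene that the authors divided by a size factor of that library. The deposited mean over libraries is also a signal. The authors' log2 fold change compares knockout with heterozygous libraries, and p-values of the authors, raw and adjusted, come with a test statistic and a weight, which are deposited scores.

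All values were whole multiples of 1 step per library (100% within 0.001 reads), which gave whole reads and depth. In heterozygous A and C the step lies within 1% of 1. Genotypes were compared on log2(value + 1) with limma 3.58.1 (R 4.3.3), allowing the variance to follow the mean. The test was two-sided, had no covariate and took the 18227 genes with a mean of at least 10. Calls are at a Benjamini-Hochberg adjusted p under 0.05 over all these genes. Changes on the log2(value + 1) scale understate those of low genes. Run on those recovered reads, edgeR 4.0.16 called 1418 genes higher and 1503 lower, against 1318 and 1565 by limma. The methods were tested on simulated data. Libraries of a genotype differed from one another by far more than sampling noise (lowest chi-square per degree of freedom 42.2), and each was counted as 1 sample. The design text calls them biological replicates, and each is a pool of mice.

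The 10 genes and the 15 gene lists were chosen with earlier results of these data known. Of 64 listed motile-axoneme names 62 were found, and the other 2 were not analysed here. Genes named beside the 10 were up to 3 per list and direction with the smallest p, all switch and RFX genes, Plk4, Stil, the fixed cell type markers and the 6 transcripts most like Foxj1. Gfap, Id3, Sox9, Pdgfrb, Notch3, Cep120, Nedd1, Cntrob, Cep57 and Dnaaf2 were named after their calls were seen. Gene coordinates and exon lengths came from GENCODE M21, and promoters from RefSeq on GRCm38.p6. Figures were drawn with matplotlib 3.10.9.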

Additional observations from a re-analysis of the deposited data

How the results depend on the processing

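Over 18 alternatives (3 edgeR scalings, DESeq2, pseudocounts, filters, thresholds, the variance model, a replicate block and fits without each library), 0 of the 10 genes changed sign and 0 were called lower. The count of the 10 called higher was 5 with each edgeR scaling, DESeq2, either pseudocount, a mean of at least 50 and adjusted p under 0.1, and 4 with no filter. It was 1 without the mean-variance trend (Rfx2) and 2 at adjusted p under 0.01 (Foxj1 and Rfx2), where the whole table gave 317 and 115 higher calls in place of 1318. With 1 library left out it ran from 1 (without heterozygous B) to 6 (without knockout C), and the whole table ran from 109 to 1956 higher calls. Upper-quartile scaling moved the median change of all genes to 0.13, and with it 1572 genes were called higher and 1406 lower.

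Same-lettered libraries did not deviate together (correlations of -0.072, 0.021 and -0.10, against -0.087 to 0.16 for libraries of different letters). These values cannot show whether pools of one letter were made or handled together, and the labels do not say. With the letter as a replicate block 5 of the 10 genes were called. The block gave 53 higher calls for the motile axoneme, 19 for ependymal markers, 1 for transport genes, 2 higher and 5 lower for centriole genes, and 0 higher and 2 lower for switch genes. With 1 library left out, higher calls ran from 0 to 59 for the motile axoneme, 0 to 19 for ependymal markers, 0 to 9 for transport genes, 0 to 3 for centriole genes and 0 to 1 for switch genes, and lower calls from 3 to 8 for centriole genes and 0 to 2 for switch genes. The cause was not tested. Gmnc, Ccno and Mcidas have few reads, and Gmnc and Ccno also differ widely between libraries of a genotype.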

Other observations

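In the authors' deposited table the same 5 of the 10 genes had an adjusted p under 0.05, with log2 fold changes of 2.17 for Foxj1, 2.26 for Trp73, 1.61 for Deup1, 1.38 for Rfx2 and 1.11 for Rfx4. In the authors' deposited table Myb had a log2 fold change of 0.93 (adjusted p = 0.0609) and Ccno one of 1.55 (adjusted p = 0.110).

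Across the 10 genes, the ratio of knockout A to knockout C was 5.56 for Ccno, 3.20 for Myb, 3.10 for Deup1, 3.07 for Foxj1 and 2.85 for Trp73, but 1.24 for Rfx2 and 0.554 for Rfx4. Rfx2 was thus the gene with a call whose increase varied least between knockout libraries, with a coefficient of variation of 11.03% in knockout libraries, while Foxj1 had 49.8%. Trp63, the relative of Trp73 that marks basal cells of airway epithelium, had 105, 97.9 and 55.7 normalized reads in knockout libraries A, B and C and 35.3, 38.2 and 42.0 in heterozygous A, B and C, with no overlap and no call (limma adjusted p = 0.112).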
